A study of Mus musculus with 12 samples.

Results

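The genes that make, store and break down the monoamines were examined in the islet transcriptomes of WFS1-deficient mice. The 8 genes were chosen by name from the deposited islet RPKM table, in which they are 8 of 24078 entries. The rule that picks them uses names and no measured value, but the genes were chosen with earlier results of these data known. They are Th, Tph1, Tph2 and Ddc for synthesis, Slc18a1 and Slc18a2 for vesicular storage, and Maoa and Maob for breakdown.

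Monoamines are small messengers made from amino acids. Tyrosine hydroxylase (Th) starts the synthesis of dopamine from tyrosine, tryptophan hydroxylase (Tph1 in peripheral cells, Tph2 mainly in neurons) starts the synthesis of serotonin from tryptophan, and aromatic L-amino acid decarboxylase (Ddc) completes both routes. The vesicular monoamine transporters VMAT1 (Slc18a1) and VMAT2 (Slc18a2) load the products into secretory granules or vesicles, and the monoamine oxidases A and B (Maoa, Maob) of the outer mitochondrial membrane oxidise them to aldehydes and hydrogen peroxide. Pancreatic beta cells keep serotonin and dopamine in their insulin granules, where serotonin production rises in pregnancy under lactogenic hormones and dopamine restrains insulin release.

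Islets of 12 male mice were sequenced, with 1 library for each animal and 4 animals in each of 3 genotypes. All were F2 hybrids of C57BL/6 and another inbred strain, aged 5 to 6 months. WT animals had 2 intact copies of Wfs1, Wfs1HZ animals were heterozygous for the Wfs1tm1Koks allele, and Wfs1KO animals carried it on both chromosomes. In this allele a LacZ cassette replaces most of exon 8, in every tissue, and a truncated WFS1 fused to LacZ can still be made, so it is not a complete loss of the gene. Islets were freed with collagenase, picked by hand and kept overnight in high glucose medium before RNA was extracted, so the libraries describe cultured islets. The comparisons ask whether the monoamine genes differ between the genotypes in islets.

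The genes lie on 6 chromosomes of the mm10 genome, as annotated by GENCODE M21. The monoamine oxidases are neighbours on the X chromosome in tail-to-tail orientation, with Maoa at chrX:16619698-16687818 on the plus strand and Maob at chrX:16709282-16817366 on the minus strand, 21463 bases apart between their 3′ ends. Ddc lies at chr11:11814101-11898144, Th at chr7:142892752-142931128, Tph1 at chr7:46644641-46672537, Tph2 at chr10:115078641-115185022 and Slc18a1 at chr8:69037711-69089235, all on the minus strand. Slc18a2 lies at chr19:59260896-59296012 on the plus strand and shares 111 exonic bases with the antisense gene Gm29261. Whether strand was used in counting is not given in the sources used here, and without strand the reads of such partners cannot be told apart.

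Since the main differences concerned Maob and Maoa, which are paralogs, their coding sequences were compared to see where reads could be shared. Over their aligned coding bases Maoa (1581 bases) and Maob (1563 bases) were 71.2% identical, and their longest identical run was 35 bases, against a forward read of 75 bases and a reverse read of 35 bases. The 75 bases around that run are given here in coding orientation from 5′ to 3′, with the bases that differ between the genes in capitals. They are protein-coding, span the junction of exons 11 and 12 of 15 in each gene, and start at coding base 1145 in Maoa and 1118 in Maob.
Maoa: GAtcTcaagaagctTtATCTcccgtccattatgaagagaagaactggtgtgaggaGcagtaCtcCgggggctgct
Maob: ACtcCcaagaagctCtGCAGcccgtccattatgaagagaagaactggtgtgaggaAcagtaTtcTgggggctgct
Of these 75 bases 11 differed, so a forward read over the most similar stretch met bases that tell the genes apart, while a reverse read could match both genes at this stretch. On the mm10 genome the windows lie at chrX:16680852-16682255 and chrX:16716429-16718275, intron included. Tph1 and Tph2 were 69.9% identical with a longest shared run of 15 bases, and Slc18a1 and Slc18a2 were 68.4% identical, also with a run of 15 bases. The longest run shared by Th and Tph1 was 23 bases.

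RPKM is the number of reads of a gene per kilobase of transcript, scaled to the mapped reads of the library, so levels can be set against each other between genes. Between animals they depend on the makeup of each library as well. The RPKM of all entries summed to 452013 to 759938 per library. The reads behind the RPKM, estimated from short RNA genes, numbered 2175000 to 9554000 per library, and 3 reads on a transcript of 2 kb were worth 0.157 to 0.69 RPKM, counting error only. Wfs1 had 24.85 to 33.94 RPKM in WT, 4.69 to 16.43 in Wfs1HZ and 2.45 to 6.61 in Wfs1KO animals, so that WT stood apart from both. The mutant genotypes overlapped through Wfs1HZ replicate 2 alone, and without it the lowest Wfs1HZ animal had 8.16 RPKM, above every Wfs1KO animal. The hormone genes of the islet were abundant in every library, from 4980.53 RPKM upwards for Ins1 and from 50072.57 for Gcg, although the beta cell factor Mafa was listed at 0 in 10 of 12 libraries. Acinar marker genes, summed, ranged from 50970 to 112800 RPKM in WT, from 8440 to 294500 in Wfs1HZ and from 7979 to 264000 in Wfs1KO libraries. Of these Ctrb1 alone ran from 6079.13 to 258069.66 RPKM over all libraries. Wfs1HZ replicate 2 stood apart from the other libraries. It had the fewest reads, a median of 3.37 RPKM over all entries against 0.75 to 1.73 in the others, and a median Spearman correlation of 0.86 with the other libraries against 0.904 to 0.931 among them. Several values that rest on it are given with and without it.

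By mean RPKM the breakdown genes stood above the synthesis and storage genes in the islets. Over the 12 animals the mean level was 17.7 RPKM for Maob and 6.57 for Maoa, 4.75 for Th and 4.61 for Ddc, 2.17 for Slc18a2 and 1.59 for Slc18a1, 1.1 for Tph1 and 0.792 for Tph2. Neighbours in this order were compared within animals by an exact sign-flip permutation test of the log2(RPKM + 0.1) values, two-sided, over 7 neighbouring pairs without adjustment. Maob exceeded Maoa in 11 of 12 animals, by 1.26 on the log2 scale (SD 0.83, exact p = 0.000977), and Maoa exceeded Th in 11 of 12 animals by 0.59 (SD 0.9, exact p = 0.0391). Maoa was below Th in Wfs1HZ replicate 3 (7.76 against 14.44 RPKM), and Maoa against Ddc was not tested. Th and Ddc did not differ beyond their spread, with a mean log2 difference of 0.0 (SD 0.97, exact p = 0.984), nor did Tph1 and Tph2, at 0.04 (SD 0.94, exact p = 0.893). Without Wfs1HZ replicate 2 the mean was 0.583 RPKM for Tph1 and 0.644 for Tph2, so the order of this pair rests on that library.

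Ddc exceeded Slc18a2 by 0.95 on the log2 scale in 11 of 12 animals (SD 0.72, exact p = 0.00244). Slc18a2 exceeded Slc18a1 by 0.62 in 9 of 12 animals (SD 0.7, exact p = 0.0166), and Slc18a1 exceeded Tph1 by 0.84 in 9 of 12 animals (SD 0.83, exact p = 0.00781). The order of the group means was the same in WT and Wfs1KO islets, with Ddc above Th and Tph2 above Tph1. In Wfs1HZ islets the mean of Tph1 stood above both transporters, which rests on replicate 2 alone, since its mean there was 2.18 ± 3.04 RPKM (SD, n = 4) with this library and 0.66 ± 0.183 RPKM (SD, n = 3) without it.

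**Figure D1:**
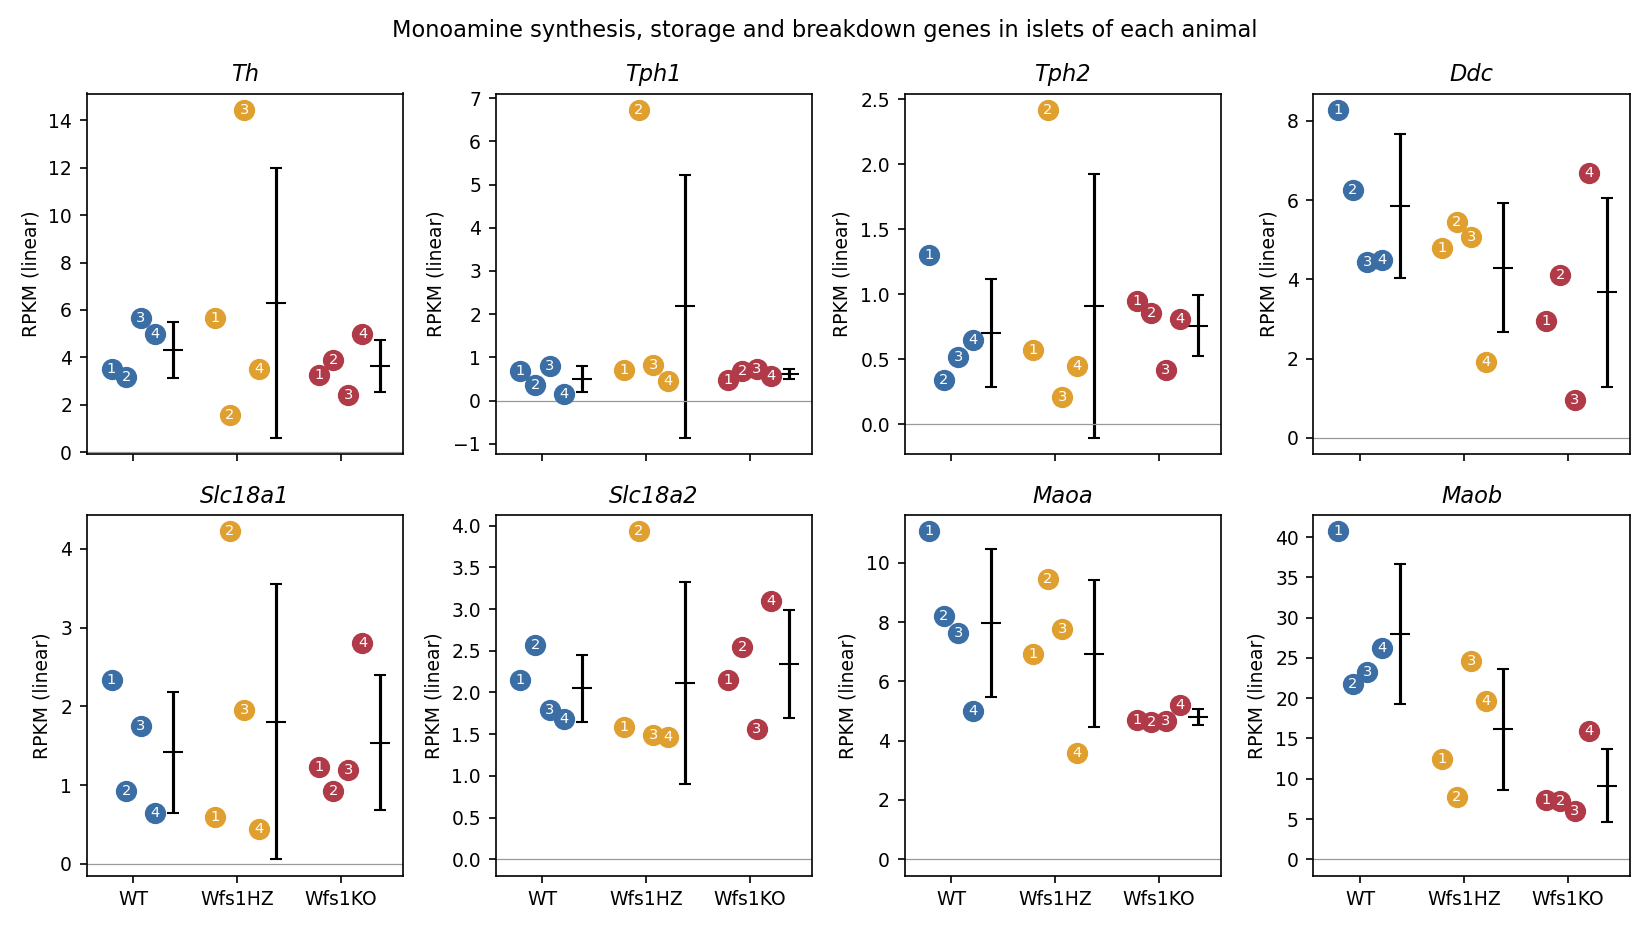
Level of each gene in each animal, in RPKM on a linear axis that differs between panels. Each point is an animal with its replicate number, and the black mark with its bar is the mean ± SD of 4 animals. For Maob all 4 Wfs1KO points (6.05 to 15.94 RPKM) lie under all 4 WT points (21.75 to 40.7 RPKM), while Tph1, Tph2, Slc18a1 and Slc18a2 are highest in Wfs1HZ replicate 2.

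Maob, whose enzyme prefers phenylethylamine and shares dopamine with monoamine oxidase A, was the gene of the 8 that separated Wfs1KO from WT animals. In WT animals 1 to 4 its levels were 40.7, 21.75, 23.25 and 26.22 RPKM. In Wfs1HZ animals they were 12.47, 7.72, 24.61 and 19.67 RPKM, and in Wfs1KO animals 7.33, 7.26, 6.05 and 15.94 RPKM. The Wfs1KO animals all lay under the lowest WT animal, 3 of 4 Wfs1KO animals were also below the lowest Wfs1HZ animal, and Wfs1KO replicate 4 stood at about the middle of the Wfs1HZ range.

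Compared with WT, Maob in Wfs1KO islets was at 31.5% of the level, a log2 fold change of -1.67 (SE 0.33, 95% confidence interval -2.4 to -0.93). The unadjusted p from limma was 0.000611 and the exact permutation p was 0.029, the smallest that 4 against 4 animals can give. After Benjamini-Hochberg adjustment over 21701 entries the false discovery rate (FDR) was 0.435, so the difference did not pass the threshold of 0.05 over the whole table, where it ranked 29 by p. Over 22 alternative settings its log2 fold change stayed between -1.97 and -1.47 and its FDR was 0.0936 or higher. In bulk RNA fewer cells of a type and less RNA per cell cannot be told apart. The authors, who tested read counts with edgeR, list Maob as lower in Wfs1KO than in WT islets at an FDR under 0.05. They also report lower Maob in Wfs1KO islets by RT-PCR.

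Maob stayed lower in Wfs1KO islets when single libraries were left out. Without Wfs1KO replicate 4 its log2 fold change was -1.97, and without the libraries at both extremes of acinar RNA (Wfs1KO replicates 3 and 4) it was -1.88, an alternative chosen after the data were seen.

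Maoa, whose enzyme prefers serotonin and noradrenaline, showed a smaller difference in the same direction. Its levels were 11.06, 8.22, 7.62 and 5.0 RPKM in WT animals 1 to 4, 6.94, 9.47, 7.76 and 3.57 RPKM in Wfs1HZ animals, and 4.71, 4.62, 4.65 and 5.22 RPKM in Wfs1KO animals. Wfs1KO animals lay close together, and 3 of 4 were below the lowest WT animal, while WT replicate 4 was below Wfs1KO replicate 4. The level in Wfs1KO islets was 62.9% of WT, a log2 fold change of -0.67 (SE 0.25, 95% confidence interval -1.23 to -0.1, unadjusted p from limma 0.0254, FDR 0.84, exact permutation p = 0.057). The unadjusted p was under 0.05 in 16 of 22 alternatives and reached 0.0714 without WT replicate 1.

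The ratio of the oxidases also differed among animals, which was examined after the data had been seen. Maob was 3.68, 2.65, 3.05 and 5.24 times Maoa in WT animals 1 to 4, and 1.56, 1.57, 1.3 and 3.05 times Maoa in Wfs1KO animals. In Wfs1HZ animals the ratio was 1.8, 0.82, 3.17 and 5.51, so that Wfs1HZ replicate 2 was the animal in which Maoa exceeded Maob. Maob made up 72.6% to 84.0% of the summed oxidase RPKM in WT and 56.5% to 75.3% in Wfs1KO islets. The log2 ratio was lower by 1.0 in Wfs1KO than in WT islets (0.81 ± 0.54 against 1.81 ± 0.42, SD, n = 4 each). This difference was larger than either SD, but the animals overlapped, with Wfs1KO replicate 4 above WT replicate 2. The exact permutation p was 0.057, which did not pass 0.05, and the smallest that 4 against 4 animals can give is 0.029.

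**Figure D2:**
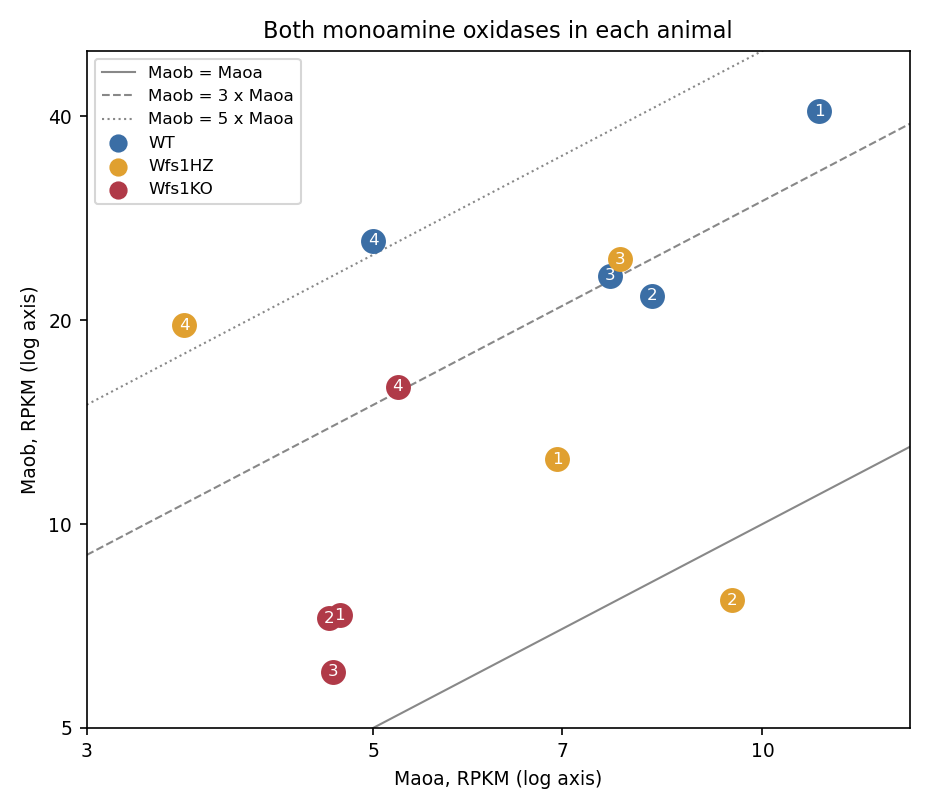
Maob against Maoa in each of the 12 animals, in RPKM on log axes, coloured by genotype and marked with the replicate number. Grey lines mark equal levels and ratios of 3 and 5. WT animals lie between ratios of 2.65 and 5.24, and 3 Wfs1KO animals cluster at ratios of 1.3 to 1.57 and low levels of both genes.

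Ddc, the decarboxylase shared by the dopamine and serotonin routes, was 8.28, 6.25, 4.43 and 4.48 RPKM in WT animals 1 to 4. In Wfs1HZ animals it was 4.78, 5.44, 5.07 and 1.9 RPKM, and in Wfs1KO animals 2.94, 4.12, 0.95 and 6.68 RPKM. The genotypes overlapped, although 3 of 4 Wfs1KO animals were below the lowest WT animal. The log2 fold change of Wfs1KO against WT was -0.9 (SE 0.53, 95% confidence interval -2.09 to 0.29, unadjusted p from limma 0.123, FDR 0.879), and it was -0.38 without Wfs1KO replicate 3. The lowest values of Ddc in Wfs1HZ and in Wfs1KO islets, 1.9 and 0.95 RPKM, were those of the libraries with the highest acinar sums, 294500 and 264000 RPKM. With the acinar marker level as a covariate, added after the data were seen, the log2 fold change of Ddc was -1.04 with an unadjusted p of 0.00957 from limma and an FDR of 0.494. This covariate was the mean log2(RPKM + 0.1) of the acinar marker genes, not their sum.

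Th, which sets the pace of dopamine synthesis, was 3.5, 3.17, 5.65 and 4.97 RPKM in WT animals 1 to 4 and 3.26, 3.88, 2.4 and 5.0 RPKM in Wfs1KO animals. In Wfs1HZ animals it was 5.68, 1.55, 14.44 and 3.51 RPKM, a 9.32-fold range that held both the highest and the lowest animal of the study. The groups overlapped throughout, and the log2 fold change of Wfs1KO against WT was -0.25 (SE 0.3, unadjusted p from limma 0.426, FDR 0.945). Markers of sympathetic neurons, which also express Th, summed to 5.81 to 12.46 RPKM in WT, 4.79 to 38.25 in Wfs1HZ and 9.49 to 12.9 in Wfs1KO libraries. Of these markers Stmn2 alone ran from 2.08 to 22.09 RPKM over all libraries. The part of such neurons in the Th values was not tested. Dbh, which turns dopamine into noradrenaline in those neurons, reached 0.44 RPKM at most and was listed at 0 in 2 libraries.

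Tph1 and Tph2, the tryptophan hydroxylases, had the lowest mean levels of the 8 genes. Tph1 was 0.68, 0.36, 0.79 and 0.14 RPKM in WT animals 1 to 4, 0.7, 6.73, 0.82 and 0.46 RPKM in Wfs1HZ animals, and 0.48, 0.68, 0.74 and 0.56 RPKM in Wfs1KO animals. Wfs1HZ replicate 2 alone stood above 1 RPKM, and WT replicate 4 was the lowest. Tph2 was 1.3, 0.34, 0.52 and 0.65 RPKM in WT, 0.57, 2.42, 0.21 and 0.45 RPKM in Wfs1HZ, and 0.95, 0.86, 0.42 and 0.81 RPKM in Wfs1KO animals, again highest in Wfs1HZ replicate 2. The log2 fold changes of Wfs1KO against WT were 0.43 for Tph1 (SE 0.51, unadjusted p from limma 0.42, FDR 0.944) and 0.18 for Tph2 (SE 0.48, unadjusted p from limma 0.712, FDR 0.985), and the latter was -0.06 without WT replicate 2. Their 95% confidence intervals ran from -0.72 to 1.57 and from -0.9 to 1.27, which holds no change as well as changes in either direction.

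Mast cells also make serotonin through Tph1. Mast cell markers summed to 2.0 to 10.25 RPKM in 11 libraries and to 11.94 RPKM in Wfs1HZ replicate 2, and the mast cell proteases Mcpt4 and Tpsb2 were each listed at 0 in 5 of 12 libraries. Kit alone ran from 1.64 to 8.92 RPKM, and no other gene of this sum passed 1.56 RPKM. The part of such cells in the Tph1 values was not tested.

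The vesicular transporters overlapped between all genotypes, for Slc18a2 between Wfs1HZ and WT through replicate 2 alone. Slc18a2, the transporter of monoamine neurons that beta cells also use, varied least of the 8 genes, 2.69-fold from the lowest to the highest animal. It was 2.15, 2.57, 1.79 and 1.68 RPKM in WT animals 1 to 4, 1.58, 3.93, 1.49 and 1.46 RPKM in Wfs1HZ animals, and 2.15, 2.55, 1.56 and 3.1 RPKM in Wfs1KO animals. Without replicate 2 its Wfs1HZ mean was 1.51 ± 0.0624 RPKM (SD, n = 3), with each of the 3 animals below the lowest WT animal, against 2.05 ± 0.402 RPKM (SD, n = 4) in WT islets. How many entries of the whole table separate after the same omission was not counted. With all animals the log2 fold change of Slc18a2 in Wfs1HZ against WT was -0.07 (SE 0.44, unadjusted p from limma 0.884). Slc18a1, known from endocrine and chromaffin cells, was 2.33, 0.93, 1.75 and 0.65 RPKM in WT, 0.6, 4.22, 1.95 and 0.45 RPKM in Wfs1HZ, and 1.23, 0.93, 1.19 and 2.81 RPKM in Wfs1KO animals. Wfs1HZ replicate 2 was the highest library for each of them.

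The log2 fold change of Wfs1KO against WT was 0.16 for Slc18a2 (SE 0.31, 95% confidence interval -0.54 to 0.86, unadjusted p from limma 0.614, FDR 0.971). For Slc18a1 it was 0.14 (SE 0.5, 95% confidence interval -0.99 to 1.28, unadjusted p from limma 0.784, FDR 0.993), a value whose sign turned in 4 of 22 alternatives, including to -0.18 without Wfs1KO replicate 4 and to -0.15 without WT replicate 4.

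Counted together, 0 of the 8 genes had an FDR under 0.05 between Wfs1KO and WT islets in limma, where 0.0138% of all entries tested did. At an unadjusted p under 0.05, 2 of 8 genes were lower in Wfs1KO islets (Maob and Maoa), where 1.74% of all entries were lower, and 0 of 8 were higher, where 3.91% of all entries were. The animals of Wfs1KO and WT did not overlap for 1 of 8 genes, Maob, with lower levels in Wfs1KO islets, against 0.991% of all entries that did not overlap in this direction. The authors had already listed Maob as lower in Wfs1KO islets, and the genes were chosen with earlier results known. Counts that include Maob are therefore not separate evidence. The log2 fold changes were below 0 for 4 genes and above 0 for 4, with a median of -0.05, against a median of 0.07 over all 21701 entries.

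**Figure D3:**
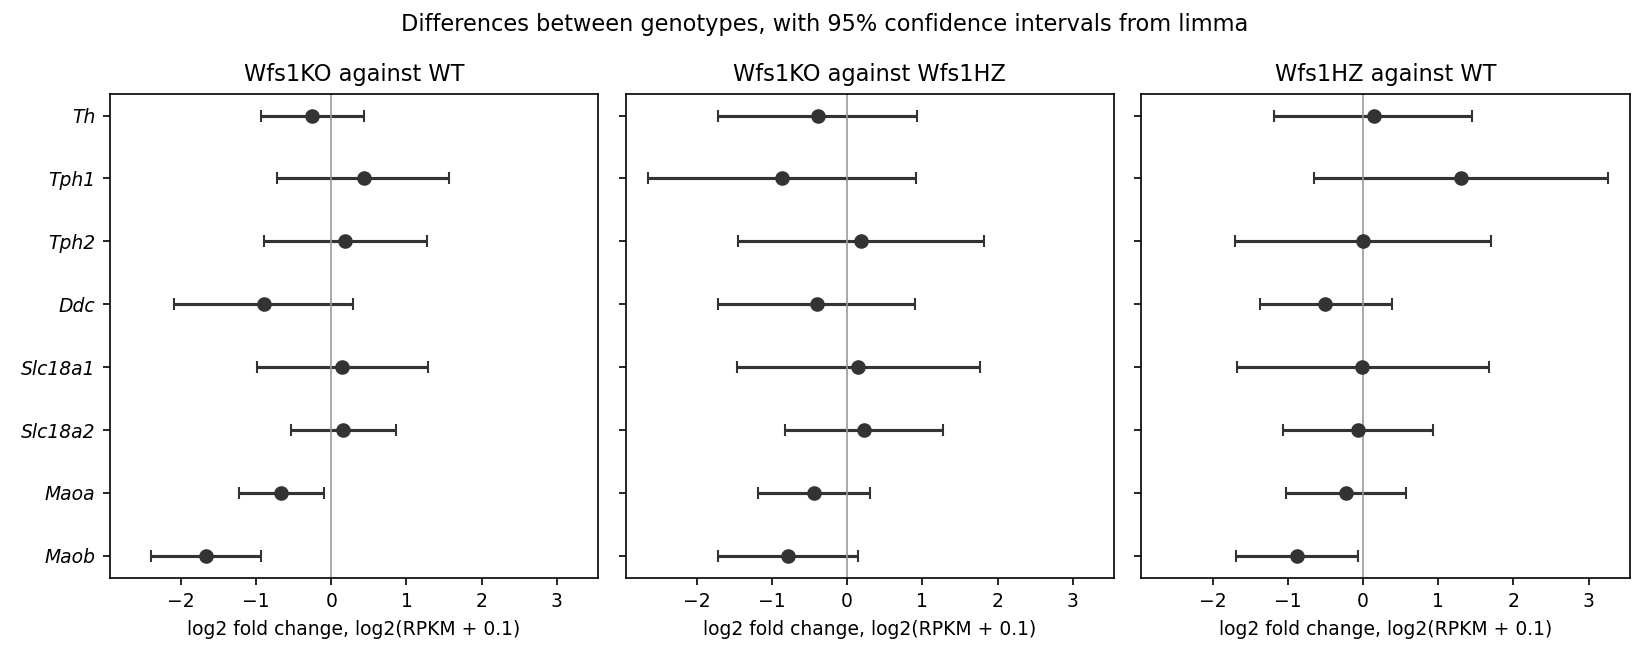
Log2 fold change of each of the 8 genes on the log2(RPKM + 0.1) scale in the 3 comparisons of genotypes, as points with 95% confidence intervals from limma. The interval excludes 0 for Maob (-2.4 to -0.93) and Maoa (-1.23 to -0.1) between Wfs1KO and WT and for Maob (-1.69 to -0.06) between Wfs1HZ and WT, before adjustment over all entries.

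Between Wfs1HZ and WT islets, which share the WT animals with the comparison above, Maob was at 54.4% of the WT level, a log2 fold change of -0.88 (SE 0.36, 95% confidence interval -1.69 to -0.06, unadjusted p from limma 0.037, FDR 1, exact permutation p = 0.086). Of the Wfs1HZ animals 3 of 4 were below the lowest WT animal, and the log2 fold change was -0.57 without Wfs1HZ replicate 2 (unadjusted p from limma 0.103). Maoa and Ddc differed by less than the spread between animals, with log2 fold changes of -0.23 (SE 0.36, FDR 1 from limma) and -0.5 (SE 0.39, FDR 1 from limma). The sign for Maoa turned to 0.06 without Wfs1HZ replicate 4. In limma 0 of 8 genes had an FDR under 0.05, as did 0% of all entries, and 1 of 8 was lower at an unadjusted p under 0.05, against 1.27% of all entries. The animals did not overlap for 0 of 8 genes, where 1.66% of all entries did not overlap.

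Between Wfs1KO and Wfs1HZ islets the log2 fold change was -0.79 for Maob (SE 0.42, 95% confidence interval -1.71 to 0.14, unadjusted p from limma 0.0868, FDR 1, exact permutation p = 0.171). Without Wfs1HZ replicate 2 it was -1.1, with an unadjusted p from limma of 0.0238 and an FDR of 0.812. For Maoa it was -0.44 (SE 0.34, FDR 1 from limma) and for Ddc -0.4 (SE 0.59, FDR 1 from limma), the latter turning to 0.12 without Wfs1KO replicate 3. In limma 0 of 8 genes had an FDR under 0.05, as did 0% of all entries, 0 of 8 had an unadjusted p under 0.05, against 2.45% of all entries, and for 0 of 8 the animals did not overlap, against 1.43% of all entries.

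With the number of intact Wfs1 copies (2, 1 and 0) as a slope over all 12 animals, Maob was higher by 0.83 on the log2 scale for each copy (SE 0.18, 95% confidence interval 0.46 to 1.2, unadjusted p from limma 0.000153, FDR 0.526). It ranked 5 of 21701 entries by p, and Wfs1 itself ranked 1 with a slope of 1.38 (SE 0.18, FDR 0.00825 from limma). The group means of Maob were 28.0 ± 8.68, 16.1 ± 7.5 and 9.14 ± 4.57 RPKM (SD, n = 4 each) in WT, Wfs1HZ and Wfs1KO islets. When limma gave each library a weight of its own, the slope of Maob was 0.91 and its FDR was 0.0138, which passed the threshold, while in the other 24 alternatives the FDR was 0.0854 or higher.

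The slopes of Maoa and Ddc were 0.33 (SE 0.16, unadjusted p from limma 0.0538, FDR 1) and 0.45 (SE 0.24, unadjusted p from limma 0.0774, FDR 1). As deposited and unweighted, 0 of 8 genes had an FDR under 0.05 for the slope in limma, against 0.00461% of all entries, and 1 of 8 had a positive slope at an unadjusted p under 0.05, against 1.08% of all entries. This fit uses the same animals as the pairwise comparisons and is not separate evidence.

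The cell makeup of the islet preparations differed among libraries, and its values are set beside Maob here. Beta cell markers (8 genes, summed) ranged from 31990 to 179700 RPKM in WT, from 12500 to 137600 in Wfs1HZ and from 22300 to 91370 in Wfs1KO islets, with overlap between genotypes. With the beta cell marker level as a covariate the log2 fold change of Maob between Wfs1KO and WT was -1.64 (unadjusted p from limma 0.0019, FDR 0.719), and with the acinar level it was -1.75 (unadjusted p from limma 3.97e-05, FDR 0.102). Both covariates were the mean log2(RPKM + 0.1) of the marker genes, not their sum, and were added after the data were seen.

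Mesenchymal markers (5 genes, summed) were higher in every Wfs1KO library, at 52.54 to 120.8 RPKM, than in any WT library, at 16.99 to 49.87 RPKM, and reached 337.2 RPKM in Wfs1HZ replicate 2. Of the 5 genes 1, Dcn, did not overlap between Wfs1KO and WT animals, and it made up most of the sum, with 8.65 to 223.73 RPKM over the 12 libraries. Endothelial markers ranged from 25.6 to 79.99 RPKM in WT and from 72.8 to 89.49 RPKM in Wfs1KO islets. Ductal sums were 636.5 to 1360 RPKM in WT and 177.8 to 1894 in Wfs1KO islets, immune sums 58.64 to 230.3 and 26.64 to 172.9, and Schwann cell sums 2.11 to 4.05 and 2.26 to 5.68. Alpha cell sums were 59460 to 182300 RPKM in WT and 50090 to 217200 in Wfs1KO islets, delta cell sums 2149 to 4817 and 1722 to 5043, and Ppy 2557 to 8388 and 4231 to 18200. Over all libraries Spp1 alone ran from 123.55 to 1827.26 RPKM within the ductal sums, and Gcg from 50072.57 to 217165.49 within the alpha cell sums. The part of these cell types in the Maob and Maoa values was not tested.

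**Figure D4:**
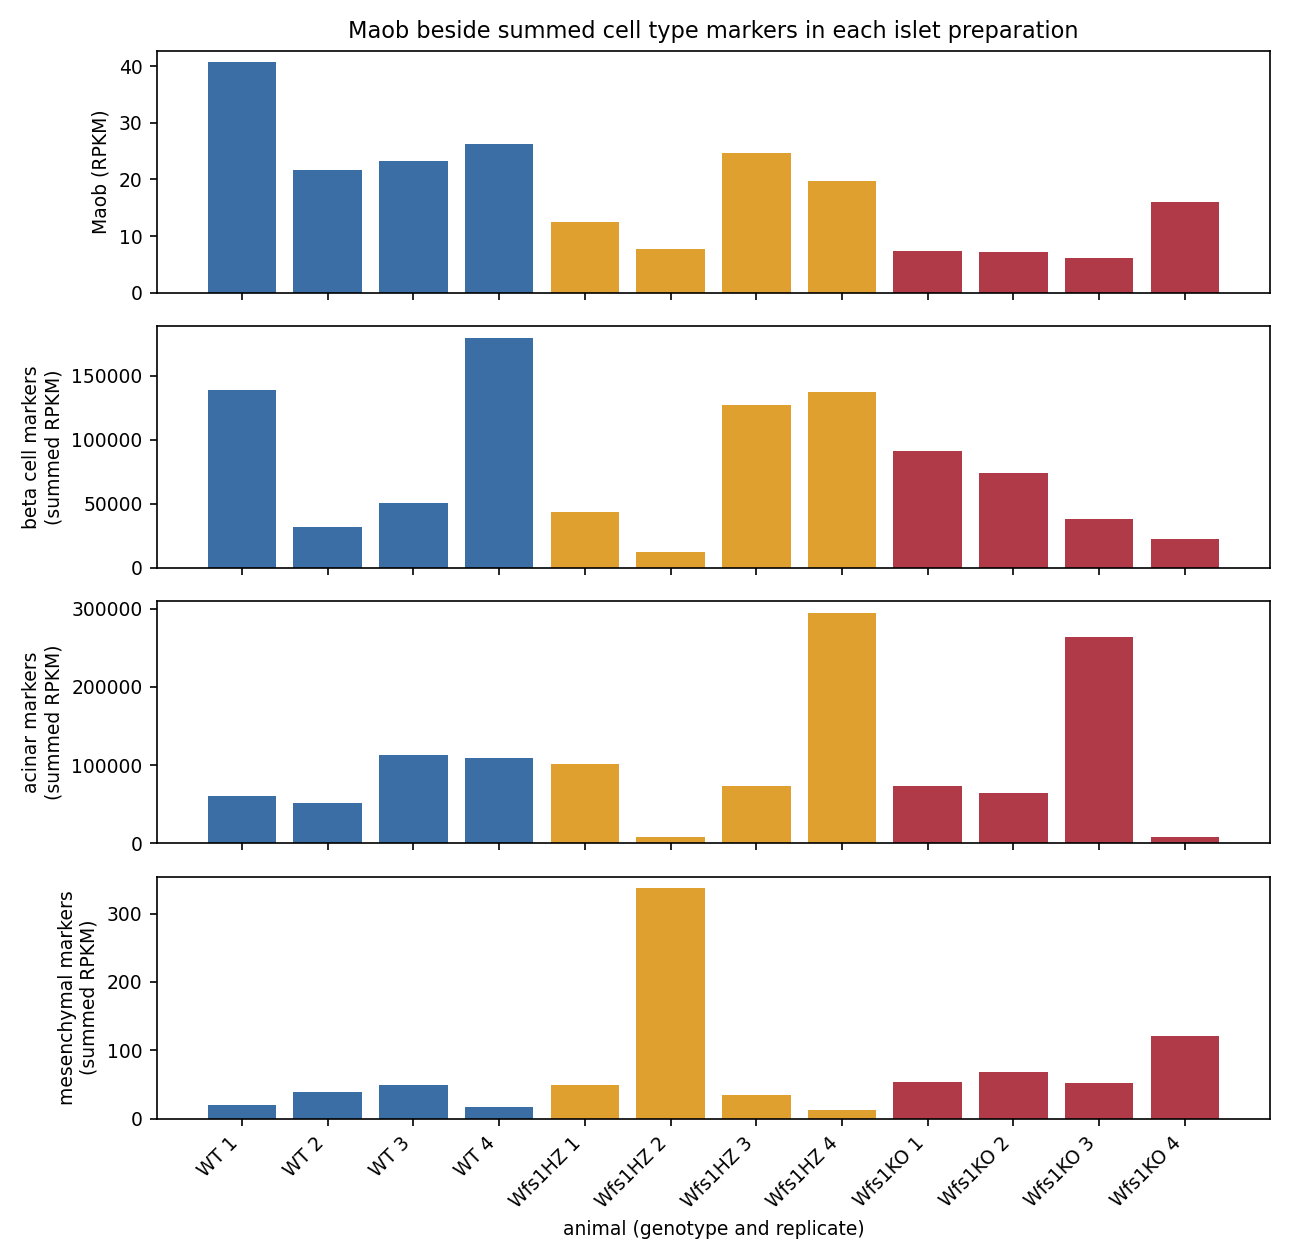
Maob and the summed RPKM of beta cell, acinar and mesenchymal marker genes in each of the 12 libraries, as bars on linear axes from 0, coloured by genotype. Maob is at 21.75 RPKM or more in all WT libraries, where beta cell sums run from 31990 to 179700, and mesenchymal sums are higher in each Wfs1KO library than in each WT library.

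The wider pathway was described by 8 further lists of 94 genes, of which 92 were in the table and 89 passed the filter on low values. Between Wfs1KO and WT islets 0 of 89 genes had an FDR under 0.05 in limma, 0 were lower at an unadjusted p under 0.05 and 4 were higher, together 4.49% of the genes against 5.64% of all entries. The animals did not overlap for 2 genes, 2.25%, against 2.74% of all entries. Between Wfs1HZ and WT islets 1 gene was lower and 3 were higher at an unadjusted p under 0.05, together 4.49% against 2.35% of all entries, and between Wfs1KO and Wfs1HZ islets 0 genes passed in either direction, against 2.45% of all entries. The shares between Wfs1KO and WT islets are near those of the whole table. Wfs1HZ replicate 2 was the highest library for 46.7% of the listed genes and for 46.9% of all entries tested.

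The cofactor genes were abundant. Tetrahydrobiopterin, which Th and both tryptophan hydroxylases need, is made from GTP by Gch1 and recycled with Pcbd1, and pyridoxal phosphate serves Ddc. Gch1 was 79.5 ± 14.2 RPKM in WT, 61.1 ± 12.8 in Wfs1HZ and 65.7 ± 13.1 in Wfs1KO islets (SD, n = 4 each), far above the hydroxylases themselves. Pcbd1 was 94.2 ± 16.1, 81.5 ± 22.8 and 89.7 ± 28.3 RPKM. Of 11 cofactor genes 0 passed an unadjusted p of 0.05 between Wfs1KO and WT islets, where 5.64% of all entries did, and their median log2 fold change of Wfs1KO against WT was -0.11.

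Other enzymes of synthesis were low, while those that clear the aldehydes made by monoamine oxidase were high. The histidine decarboxylase gene Hdc was 0.925 ± 0.685 RPKM in WT and 1.45 ± 0.309 in Wfs1KO islets (SD, n = 4 each). The aldehyde reductase gene Akr1a1 was 125.0 ± 17.2 RPKM in WT, 102.0 ± 18.0 in Wfs1HZ and 102.0 ± 13.4 in Wfs1KO islets, and the fatty aldehyde dehydrogenase gene Aldh3a2 was 30.3 ± 6.66, 25.2 ± 2.84 and 25.7 ± 3.11 RPKM. For Akr1b3, the aldose reductase gene, the Wfs1HZ animals (1.98 to 3.49 RPKM) lay below the WT animals (3.67 to 6.35 RPKM), with a log2 fold change of -0.76 (SE 0.33, unadjusted p from limma 0.043, FDR 1), while Wfs1KO animals (2.81 to 6.13 RPKM) overlapped both. Median log2 fold changes of Wfs1KO against WT were 0.32 over the 6 synthesis genes tested and -0.12 over the 15 breakdown genes tested.

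Among transporters, Slc7a5 and Slc3a2, which together carry large neutral amino acids such as tyrosine and tryptophan, were the highest. Slc7a5 was 63.2 ± 13.3 RPKM in WT and 62.8 ± 11.7 in Wfs1KO islets (SD, n = 4 each), and Slc3a2 was 103.0 ± 10.3 and 119.0 ± 20.7 RPKM. The organic cation transporter gene Slc22a3, named after its values were seen, was at 0.0 to 0.13 RPKM in WT and 0.14 to 0.52 in Wfs1KO animals without overlap (log2 fold change 1.21, SE 0.46, FDR 0.84 from limma), levels near the worth of 3 reads on a transcript of 2 kb.

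A mean of at least 1 RPKM was reached by 3 of 14 serotonin receptor genes and by 5 of 15 dopamine, adrenergic and trace amine receptor genes. Of the serotonin receptors Htr2b, which acts on beta cell growth in pregnancy, was 2.06 ± 1.31 RPKM in WT and 1.74 ± 0.885 in Wfs1KO islets (SD, n = 4 each), and Htr7 was 0.765 ± 0.415 and 0.677 ± 0.372 RPKM. The trace amine receptor gene Taar1 was 6.12 ± 2.57 RPKM in WT, 5.16 ± 3.06 in Wfs1HZ and 9.6 ± 3.83 in Wfs1KO islets, with a log2 fold change of Wfs1KO against WT of 0.6 (SE 0.42, FDR 0.916 from limma). Adra2a, through which adrenaline restrains insulin release, was 5.71 ± 2.8, 5.54 ± 2.09 and 5.55 ± 1.87 RPKM. Htr3b, for a subunit of the serotonin-gated channel, and the dopamine receptor gene Drd5, named after their values were seen, were higher in Wfs1KO than in WT islets at unadjusted p of 0.0355 and 0.00701 from limma (FDR 0.844 and 0.835) at mean levels of 0.748 and 0.132 RPKM. Htr3b was also higher in Wfs1HZ than in WT islets at an unadjusted p of 0.0275 from limma (FDR 1).

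The next lists hold transcription factors of monoamine cells and lactogen signalling genes that act upstream of islet serotonin. The islet transcription factor gene Insm1 was 12.3 ± 4.75 RPKM in WT and 13.0 ± 6.1 in Wfs1KO islets (SD, n = 4 each), and Nkx2-2, of the same class, was 19.1 ± 9.41 and 16.6 ± 9.08 RPKM. Ghr, the growth hormone receptor gene, was 25.8 ± 6.89 and 22.9 ± 9.7 RPKM, and Jak2, its kinase, was 21.4 ± 4.18 and 26.8 ± 1.11 RPKM. Socs2, a feedback inhibitor of this route, was higher in Wfs1HZ animals (3.55 to 5.76 RPKM) than in WT animals (2.34 to 2.99 RPKM) without overlap, with a log2 fold change of 0.73 (SE 0.29, unadjusted p from limma 0.0313, FDR 1).

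The next genes were named after their values were seen. Cish, another feedback inhibitor of lactogen signalling, was 8.53 ± 1.52 RPKM in WT and 13.1 ± 3.09 in Wfs1KO islets (SD, n = 4 each), which is 0.6 on the log2 scale (SE 0.23, unadjusted p from limma 0.0272, FDR 0.84). Prlr, the prolactin receptor gene, was 10.5 ± 4.77, 7.63 ± 2.31 and 5.88 ± 1.68 RPKM in WT, Wfs1HZ and Wfs1KO islets, a slope of 0.37 for each Wfs1 copy (SE 0.17, unadjusted p from limma 0.0432, FDR 1). Hand2, a transcription factor of sympathetic neurons, was higher in Wfs1HZ than in WT islets by 1.65 on the log2 scale (SE 0.72, unadjusted p from limma 0.045, FDR 1) at a mean of 0.584 RPKM.

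**Figure D5:**
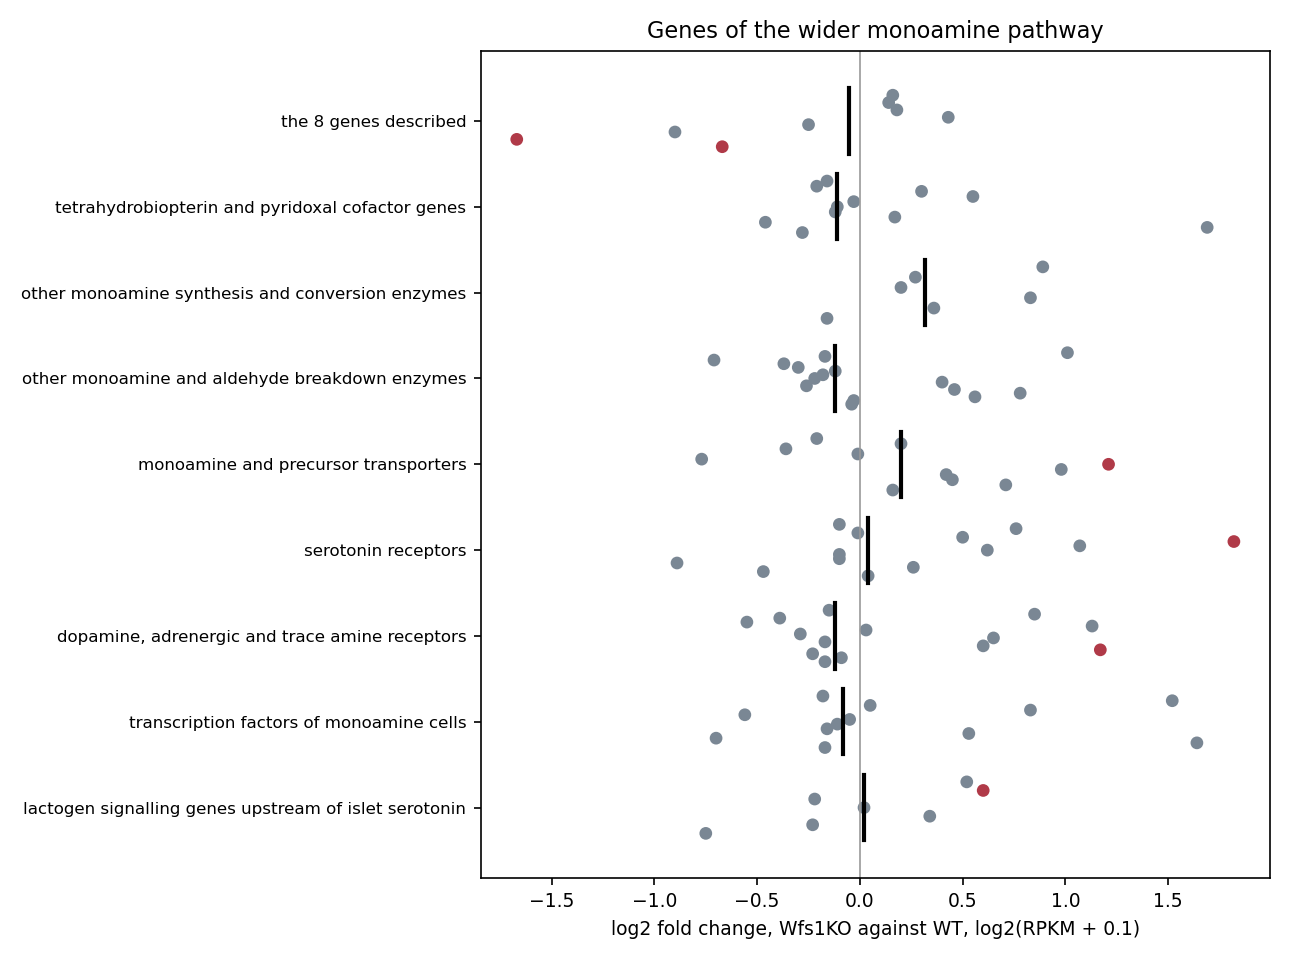
Log2 fold change of Wfs1KO against WT, on the log2(RPKM + 0.1) scale, for each tested gene of the 8 lists and of the 8 genes described, as points in rows by list. Red points have an unadjusted p under 0.05 from limma, grey points do not, and black lines mark list medians, which lie between -0.12 and 0.32. The red points left of 0 are Maob (-1.67) and Maoa (-0.67).

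The genes whose levels followed those of each member most closely over the 12 animals were found by Pearson correlation of log2(RPKM + 0.1) among 13357 entries with a mean of at least 1 RPKM. The values are a description, since all points share their libraries. For Maob they were Spock1 (r = 0.912), Phactr1 (0.885), Lrrc10b (0.869), Fbp1 (0.865) and Spnb3 (0.864), and without Wfs1HZ replicate 2 these were 0.848 to 0.934. For Maoa they were Pdha1 (r = 0.96), 2310003L22Rik (0.927), Ranbp17 (0.926), Gm8234 (0.922) and Gpld1 (0.902). Pdha1, which encodes a subunit of pyruvate dehydrogenase, had 0.965 without that library.

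For Ddc the closest were Mphosph9 (r = 0.961), Fmn2 (0.954), Vps39 (0.952), Sh3bgrl (0.948) and Nrcam (0.947). For Th they were Sik2 (r = 0.873), Spock2 (0.862), Grk5 (0.847), Ece1 (0.832) and Trmt2b (0.822). For Slc18a2 they were led by Asb3 (r = 0.953), and Zfp317 (r = 0.953) was among the closest to Slc18a1. Tph1 was closest to 5830418P13Rik (r = 0.937), which became 0.765 without Wfs1HZ replicate 2, so this likeness rests in part on that library. Tph1 also met the bar of 1 RPKM through that library alone, with a mean of 0.583 RPKM without it.

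Among the 8 genes themselves the correlation over the 12 animals was highest for Tph2 with Slc18a2 (r = 0.71) and for Maoa with Ddc (r = 0.69). Without Wfs1HZ replicate 2 these were 0.49 and 0.69, so that Maoa and Ddc stayed together with and without this library. Maoa with Maob had r = 0.41 over all animals and 0.62 without it, and Maob with Ddc had 0.54 and 0.64. The serotonin genes Tph1 and Tph2 had r = 0.56 with that library and -0.08 without it.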

How the data were processed

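Islet RNA of 12 mice was read from both ends on a SOLiD instrument. Per the study's methods the authors aligned the reads with LifeScope against mm10, and they deposited RPKM values in 1 column per animal. The counting tool and annotation are not given in the sources used here. The authors tested read counts with edgeR, a test that RPKM do not allow. Groups and replicate numbers came from the sample titles.

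Values were analysed as log2(RPKM + 0.1), without further scaling, for 21701 of 24078 entries with a mean of at least 0.1 RPKM. This scale understates changes of low genes. Each pair of genotypes was fitted alone with limma 3.58.1 in R 4.3.3, two-sided, with a variance trend and Benjamini-Hochberg adjustment over these 21701 entries. The slope on Wfs1 copies used all 12 animals. Exact permutation tests were two-sided. The procedure was tested on simulated data. Other steps ran in Python 3.11.15 (scipy 1.17.1, pandas 2.3.3, numpy 2.4.6) and the plots in matplotlib 3.10.9.

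Depth was estimated from short RNA genes (under 200 nt), whose low RPKM are multiples of 1 read, and 96.1% to 100% of their values were then whole within 0.1 reads. Coordinates and coding sequences came from GENCODE M21. The table marks 969 entries as duplicate copies, none of them a gene described here.

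The genes, lists and tests were chosen with earlier results of these data known. List genes were named if their mean was at least 1 RPKM and their animals did not overlap between 2 genotypes, or if they were among the 2 highest of their list. For each member with a mean of at least 1 RPKM the 5 most correlated genes were sought. Values of 2 genes that these rules name are not reported here. Alternatives were the omission of each animal, a replicate block, weights per sample, a joint fit of the 12 samples, a robust or untrended variance, quantile normalization or median-of-ratios scaling, a filter at 1 RPKM or none, and pseudocounts of 0.01 and 1. Marker covariates, the libraries without acinar extremes and the oxidase ratio were added after the data were seen.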

Additional observations from a re-analysis of the deposited data

Results flagged for a closer look

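In groups of 4 animals, a sample was set apart when its gap to the nearest other animal was an unusually large share of the range of the group. Over 75 groups (25 genes in 3 genotypes) this met 10 values, beside a reference rate of about 1 in 20 groups. The gaps were taken on linear RPKM and the groups share the same 12 libraries. The reference is therefore not the chance rate of these data. Of the 10, 6 belonged to the 8 monoamine genes and 4 to Wfs1HZ replicate 2.

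Within the Wfs1KO animals, replicate 4 was highest and apart for Maob (15.94 RPKM), Maoa (5.22 RPKM) and Slc18a1 (2.81 RPKM), and for the serotonin receptor gene Htr2b (3.06 RPKM). This library also had the lowest acinar sum of its genotype, 7979 RPKM, and the lowest beta cell sum, 22300 RPKM. The part of the makeup of the preparation in these values was not tested. Without it the log2 fold change of Maob between Wfs1KO and WT was -1.97.

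Within the Wfs1HZ animals, replicate 2 was highest and apart for Tph1 (6.73 RPKM), Tph2 (2.42 RPKM), Slc18a2 (3.93 RPKM) and Htr7 (6.45 RPKM). It had the fewest reads, 2175000, and the highest mesenchymal sum, 337.2 RPKM, and was the highest library for 46.9% of all entries tested.

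Aldh3a2 was lowest and apart in Wfs1KO replicate 3 (21.03 RPKM), and Akr1b3 was highest and apart in Wfs1KO replicate 2 (6.13 RPKM).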

How the results depend on the processing

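The 18 differences on the log2 scale were recomputed under 392 alternatives in all, of which 383 kept the direction and the side of the threshold. The threshold was an FDR of 0.05, or an exact p of 0.05 for the oxidase ratio. Each main FDR was 0.435 or higher, so keeping its side says little. The unadjusted p from limma was under 0.05 in 16 of 22 alternatives for Maoa (Wfs1KO against WT). For Maob (Wfs1HZ against WT) it was under 0.05 in 13 of 22. The number of the 8 genes with an FDR under 0.05 was 0 in each alternative of the 3 comparisons of genotypes, and for the slope on Wfs1 copies it was 1.0 with sample weights (Maob, slope 0.91) and 0 in the other 24. The direction turned in 7: Tph2 between Wfs1KO and WT (-0.06 without WT replicate 2), Slc18a1 between Wfs1KO and WT (-0.11 with sample weights, -0.15 without WT replicate 4, -0.18 without Wfs1KO replicate 4, -0.22 without Wfs1KO replicates 3 and 4), Ddc between Wfs1KO and Wfs1HZ (0.12 without Wfs1KO replicate 3) and Maoa between Wfs1HZ and WT (0.06 without Wfs1HZ replicate 4). With an animal left out these ranged from -0.06 to 0.5 for Tph2, from -0.18 to 0.42 for Slc18a1, from -0.78 to 0.12 for Ddc and from -0.43 to 0.06 for Maoa. The cause was not tested. The ratio of Maob to Maoa between Wfs1KO and WT (log2) ran from -1.26 to -0.81 with each animal left out, and its exact p was 0.0286 without Wfs1KO replicate 4. The number of neighbours in the order of levels that differed was 5 of 7, and 4 to 5 with an animal left out.

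The replicate numbers were not treated as pairs. The deviations of same-numbered animals correlated at -0.13 to 0.06 between Wfs1KO and WT, -0.17 to 0.09 between Wfs1KO and Wfs1HZ and -0.05 to 0.23 between Wfs1HZ and WT. With the replicate number as a block the log2 fold change of Maob between Wfs1KO and WT was -1.67 with an FDR of 0.925 from limma, 0 of the 8 genes had an FDR under 0.05 in any comparison, and the entries under it between Wfs1KO and WT were 0 against 3 without the block. Between Wfs1HZ and WT the block raised the entries at an unadjusted p under 0.05 from 511 to 854, and it lowered them from 1225 to 1091 between Wfs1KO and WT and from 532 to 395 between Wfs1KO and Wfs1HZ. The best match of a Wfs1KO animal had its own number in 1 of 4 against WT and 0 of 4 against Wfs1HZ, and that of a Wfs1HZ animal against WT in 3 of 4. Whether same-numbered Wfs1HZ and WT animals share a factor was not tested.

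With 4 animals in a group no exact p can be below 0.029. On a transcript of 2 kb 3 reads were worth 0.157 to 0.69 RPKM, counting error only. Median-of-ratios scaling moved the median log2 fold change of all entries between Wfs1KO and WT from 0.07 to 0.05, and quantile normalization to -0.02.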
